A study of Mus musculus with 4 samples.

Results

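The Kupffer cell and macrophage marker genes Marco, Clec4f, Timd4, Vsig4, Cd5l, Gpnmb, Trem2, Cd68 and Csf1r were measured in 4 pools of mouse liver RNA. They were chosen by name, as the probe set annotated with that gene symbol alone, and each of the 9 genes had 1 such probe set among the 22180 genes of the array. The mice were C57BL/6, older than 2 months and of both sexes, and RNA was hybridised to 1 Affymetrix expression array per group. The groups were Chrebp-null mice on a diet of 70% fructose for 2 weeks (6 livers), wild-type (WT) mice on that diet for 2 weeks (4 livers), WT mice on it for 3 weeks (7 livers) and WT mice on regular chow (7 livers). ChREBP, the product of the gene Mlxipl, is a sugar-responsive transcription factor. The construction of the null allele and the numbers of males and females per pool are not stated in the labels. The design sets Chrebp-null over WT at 2 weeks (the Chrebp-null comparison), and 3 weeks of fructose over chow in WT (the fructose comparison). Each array is a pool and groups have no replicates, so no difference was tested, and precision is limited by having 1 array per group. All levels are log2 values made by RMA, and all differences are log2 differences between 2 arrays.

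Kupffer cells are the resident macrophages of the liver. They line the sinusoids, take up particles, bacteria and dying cells from portal blood, and depend on CSF1 receptor signalling for survival. Macrophages that enter the liver or handle much lipid carry other genes, among them Trem2 and Gpnmb, while Cd68 is found in the lysosomes of macrophages of many kinds. In RNA from whole liver, fewer cells of a type and less RNA per cell cannot be told apart.

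Marco and Gpnmb were higher in the Chrebp-null pool than in each WT pool by at least 2-fold, and Cd68 and Trem2 were also highest there by smaller differences. Vsig4 and Csf1r were highest there too, by 0.044 and 0.014 over the next pool. The promoters of Marco, Gpnmb, Trem2 and Cd68 are shown because these genes had the 4 largest differences of the 9 between the Chrebp-null and 2-week WT pools, as 250 bases before to 50 bases after the gene start (RefSeq, GRCm38.p6), 5′ to 3′ along the gene. RefSeq promoter windows were kept for 8 of the 9 genes, all but Csf1r. The chromosome of Csf1r was left out before genes were matched to windows, so its promoter was not examined. Capitals mark every match, on either strand, of GAGGAA (a core of sites of PU.1, the myeloid transcription factor), TGANTCA (AP-1 sites), TGACNNNGC (the core of antioxidant response elements) or CACGTG (the E-box).
Marco, chr1:120504975-120505274, minus strand: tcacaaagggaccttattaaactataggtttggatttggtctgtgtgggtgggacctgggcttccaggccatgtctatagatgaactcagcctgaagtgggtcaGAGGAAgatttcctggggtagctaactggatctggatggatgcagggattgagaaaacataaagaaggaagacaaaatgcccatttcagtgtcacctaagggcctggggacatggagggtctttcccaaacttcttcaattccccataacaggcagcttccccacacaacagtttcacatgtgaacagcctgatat
Gpnmb, chr6:49036268-49036567, plus strand: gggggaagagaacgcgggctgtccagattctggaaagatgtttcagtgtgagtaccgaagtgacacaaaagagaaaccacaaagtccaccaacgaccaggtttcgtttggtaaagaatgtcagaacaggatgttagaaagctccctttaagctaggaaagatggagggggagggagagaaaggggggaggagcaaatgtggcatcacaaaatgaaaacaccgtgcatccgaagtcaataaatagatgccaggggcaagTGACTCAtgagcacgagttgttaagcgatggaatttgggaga
Trem2, chr17:48346151-48346450, plus strand: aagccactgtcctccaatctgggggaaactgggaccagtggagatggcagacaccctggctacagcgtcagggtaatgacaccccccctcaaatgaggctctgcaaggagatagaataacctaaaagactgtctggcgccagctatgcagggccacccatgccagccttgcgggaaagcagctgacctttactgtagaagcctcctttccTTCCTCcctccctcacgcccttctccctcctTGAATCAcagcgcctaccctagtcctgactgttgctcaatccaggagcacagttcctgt
Cd68, chr11:69666121-69666420, minus strand: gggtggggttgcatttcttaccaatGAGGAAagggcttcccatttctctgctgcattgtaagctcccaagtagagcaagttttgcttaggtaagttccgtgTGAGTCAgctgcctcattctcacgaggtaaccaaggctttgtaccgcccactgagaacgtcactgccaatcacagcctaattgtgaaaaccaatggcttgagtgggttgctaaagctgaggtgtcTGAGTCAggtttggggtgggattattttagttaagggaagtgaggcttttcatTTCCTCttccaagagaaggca
GAGGAA matched 1 time each in Marco and in Trem2, with the first printed base of the match at positions -146 and -40 from the gene start (position 0), and in Cd68 at -225 and 29. In Gpnmb it had no match. TGANTCA matched in Gpnmb at position 8, in Trem2 at -9 and in Cd68 at -149 and -24, and had no match in Marco. Neither TGACNNNGC nor CACGTG matched in these 4 windows. Among the members not shown, GAGGAA matched in Vsig4 at -155 and -53 and in Cd5l at -66, TGACNNNGC matched in Clec4f at -61, and Timd4 had no match of any of the motifs. Of the 32841 promoter windows of this length that were kept, 28.3% held GAGGAA, 7.81% TGANTCA, 12.4% TGACNNNGC and 7.15% CACGTG. Matches of these motifs with each other did not overlap in the 4 windows, and the motifs were picked after the levels were known.

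Whole-array facts were as follows. Array medians were 3.11 to 3.17, and pairs of arrays correlated with Pearson's r of 0.974 to 0.982 across 41345 probe sets. A gene was assessed in a comparison where its higher array reached a floor of 3.52, the middle value of the genes' mean levels. Mlxipl read 8.09 in the Chrebp-null pool, against 9.83 in the 2-week WT pool (probe set 17443185), which is the direction of the label. Sex-linked genes also differed between these pools. Xist read 7.04 in the Chrebp-null pool, against 8.56 in the 2-week WT pool, and Uty, Kdm5d and Eif2s3y, on the Y chromosome, were higher in the null pool by 0.53, 0.76 and 0.84. With the dependence of the difference on level removed by a lowess fit, 156 genes were at least 2-fold higher and 195 lower in the Chrebp-null comparison, against 236 and 166 as deposited. For the fructose comparison this step gave 94 higher and 101 lower, against 75 and 136. The 10 hepatocyte markers on the array, such as Alb, had a summed level on the linear scale of 40312 in the Chrebp-null pool and 40324 in the 2-week WT pool, and of 38970 in the 3-week fructose pool and 39874 in the chow pool.

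All 9 genes were assessed in the Chrebp-null comparison. Of them 2 were at least 2-fold higher in the null pool and none was at least 2-fold lower, where 3.46% of the 11631 genes assessed passed 2-fold either way and 2.03% were higher. Their median difference was 0.12, against 0.10 over all genes assessed. Gpnmb and Trem2 reached the floor here through the null array alone, so they could enter these counts only as higher.

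Marco, a scavenger receptor with a collagen-like stem that binds bacteria and modified lipoproteins, differed most. It read 8.21 in the Chrebp-null pool, against 5.55 in the 2-week WT pool, and it read 4.95 in the 3-week fructose pool, against 5.84 in the chow pool (probe set 17226327). The null pool was the high one, and the WT pools lay within 0.88 of each other. The Chrebp-null minus WT difference was 2.66, a ratio of 6.32, the 9th highest of the 11631 genes. Against the other WT pools the null pool was higher by 3.25 (3 weeks) and 2.37 (chow), and all these differences hold the same null array. The null pool exceeded the highest WT pool by more in only 6 of 12194 genes that reached the floor on any array, which put Marco at rank 7.

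Gpnmb encodes a transmembrane glycoprotein of lysosomes and melanosomes, seen in lipid-laden macrophages. It read 4.80 in the Chrebp-null pool, against 3.40 in the 2-week WT pool, and 3.21 in the 3-week fructose pool, against 2.94 in the chow pool (probe set 17458439). Only the null pool lay above the floor. The difference in the Chrebp-null comparison was 1.40, a ratio of 2.64. With the floor in place of the WT level it was 1.28, a ratio of at least 2.43.

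Cd68, a lysosomal membrane glycoprotein, read 8.01 in the Chrebp-null pool, against 7.40 in the 2-week WT pool, and 7.18 in the 3-week fructose pool, against 7.07 in the chow pool. The difference of 0.61 in the Chrebp-null comparison lay under 2-fold, a ratio of 1.52, above that of 91.6% of the genes assessed. Against the 3-week and chow pools the null pool was higher by 0.83 and 0.94, also under 2-fold. Trem2 encodes a lipid-sensing receptor that signals through the adaptor Tyrobp. It read 4.05 in the Chrebp-null pool, against 3.43 in the 2-week WT pool, and 3.60 in the 3-week fructose pool, against 3.40 in the chow pool. Its difference of 0.62 became 0.53 with the floor in place of the WT level. Trem2 was thus dim on every array, and the 2-week WT and chow pools read below the floor.

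**Figure D1:**
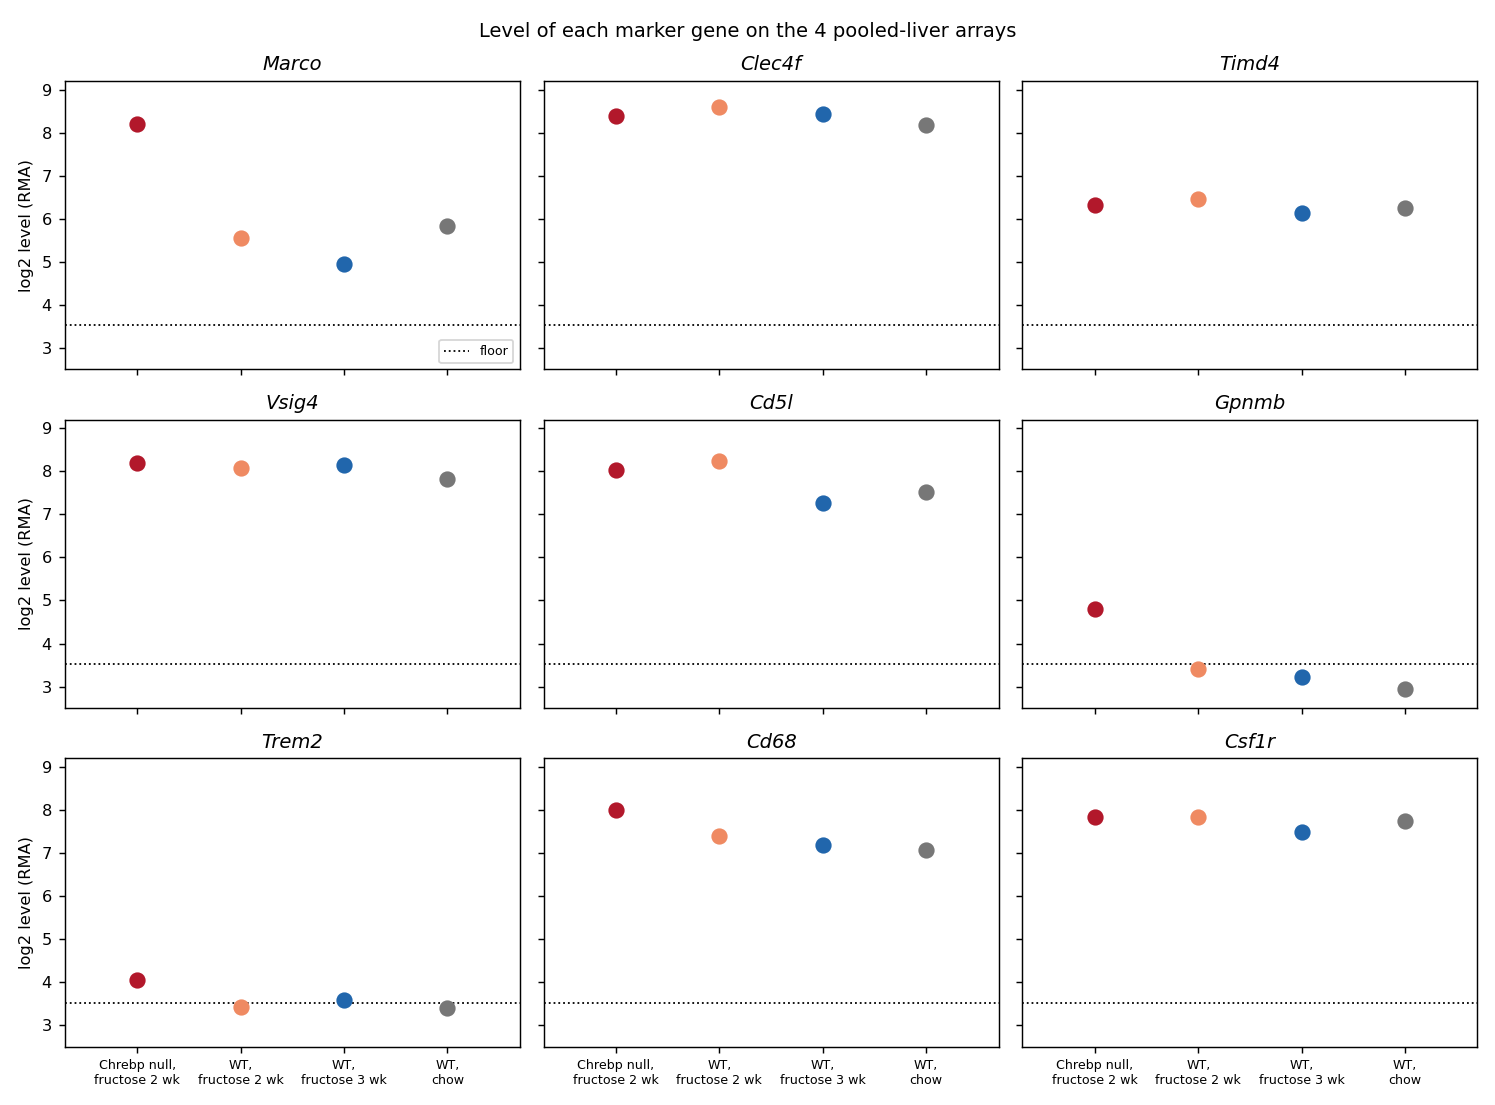
Log2 level (RMA, vertical axis) of each of the 9 marker genes in the Chrebp-null pool, the 2-week WT pool, the 3-week WT pool and the chow pool (1 point per array), with the floor of 3.52 dotted. Marco reads 8.21 in the null pool and 4.95 to 5.84 in the WT pools, Gpnmb is above the floor in the null pool only, and Clec4f, Timd4, Vsig4 and Csf1r span at most 0.42.

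Clec4f, Timd4, Vsig4 and Csf1r had the smallest spans of the 9 genes over the 4 arrays. Clec4f, a C-type lectin that in mice marks Kupffer cells, read 8.39 in the Chrebp-null pool, against 8.60 in the 2-week WT pool, and 8.43 in the 3-week fructose pool, against 8.18 in the chow pool. Its whole span was 0.42. Timd4, a receptor for phosphatidylserine on dying cells, read 6.31 in the Chrebp-null pool, against 6.45 in the 2-week WT pool, and 6.14 in the 3-week fructose pool, against 6.26 in the chow pool. Vsig4, a receptor for complement C3 fragments, read 8.20 in the Chrebp-null pool, against 8.08 in the 2-week WT pool, and 8.16 in the 3-week fructose pool, against 7.83 in the chow pool. The spans of Timd4 and Vsig4 were 0.31 and 0.37. Csf1r, the receptor for the growth factors CSF1 and IL-34, read 7.84 in the Chrebp-null pool, against 7.83 in the 2-week WT pool, and 7.49 in the 3-week fructose pool, against 7.76 in the chow pool. These 4 genes differed by -0.22 (Clec4f), -0.14 (Timd4), 0.12 (Vsig4) and 0.01 (Csf1r) in the Chrebp-null comparison, all within the 5 to 95 percentile range of all genes assessed, -0.51 to 0.75.

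Cd5l, a secreted protein of macrophages that travels with immunoglobulin M in blood, had another order. It read 8.03 in the Chrebp-null pool, against 8.24 in the 2-week WT pool, and 7.27 in the 3-week fructose pool, against 7.52 in the chow pool. Both 2-week pools were high and the other pools low, in both genotypes at 2 weeks. The Chrebp-null difference was -0.22, whereas against the 3-week WT pool the null pool was higher by 0.76. The difference of the WT pools on fructose, 3 weeks minus 2 weeks, was -0.97, and none of the 8 genes assessed was at least 2-fold lower there, where 1.10% of all genes assessed were.

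In the fructose comparison none of the 8 genes assessed was at least 2-fold higher or lower, where 1.80% of the 11717 genes assessed passed 2-fold either way. Gpnmb was below the floor on both arrays and was not assessed. The median over the 8 was -0.0078, against -0.052 over all genes assessed, with 4 differences above 0 and 4 below. Marco had the largest difference, -0.88, a ratio of 1.85, below the 5 to 95 percentile range of all genes, -0.66 to 0.51. With the 2-week WT pool over the same chow pool it stood at -0.29. The others lay within that range, from -0.27 for Csf1r to 0.33 for Vsig4. With the 2-week WT pool over chow, where 7 genes were assessed and 2.19% of all genes passed 2-fold, again none of the 7 passed, and the median was 0.25. Both comparisons share the chow array.

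**Figure D2:**
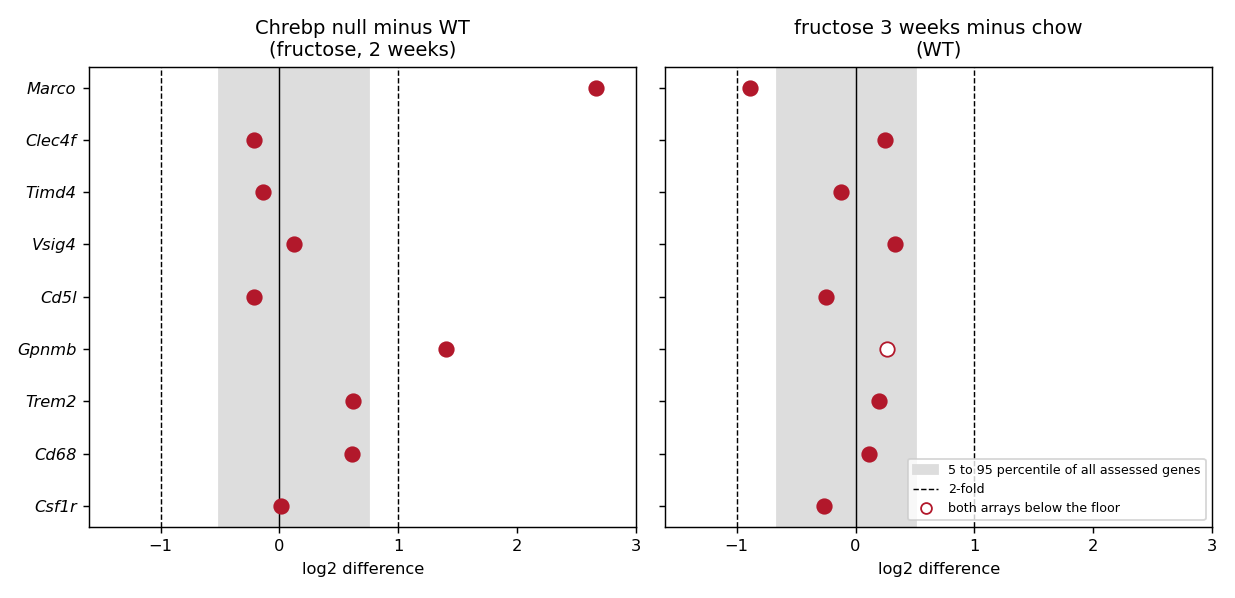
Log2 difference (horizontal axis) of each of the 9 marker genes, Chrebp null minus WT at 2 weeks of fructose on the left and 3 weeks of fructose minus chow in WT on the right. The grey band is the 5 to 95 percentile range of all genes assessed, dashed lines mark 2-fold and the open point is below the floor on both arrays. Marco (2.66) and Gpnmb (1.40) lie past 2-fold on the left, and none of the 9 does on the right.

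Against the other WT pools the Chrebp-null pool gave the same 2 genes past 2-fold. These comparisons share the null array, so they do not repeat the result. Gpnmb lay below the floor in every WT pool and could be counted only as higher. Over the 3-week WT pool the median of the 9 differences was 0.45, with Marco and Gpnmb at least 2-fold higher, where 3.38% of all genes assessed were. Over the chow pool the median was 0.51, again with those 2 genes, where 1.66% of all genes were. Differences of all 9 genes were above 0 over chow, from 0.050 for Timd4, above 48.9% of all genes assessed, to 2.37 for Marco. The median over all genes assessed was 0.058 there, also above 0. Gpnmb and Trem2 reached the floor in that comparison through the null array alone, so they could count only as higher. The summed level of the 9 on the linear scale was 1796 in the Chrebp-null pool and 1514 in the 2-week WT pool, and 1233 in the 3-week fructose pool and 1203 in the chow pool. Without Marco the sum of the other 8 was 1500 in the Chrebp-null pool and 1467 in the 2-week WT pool, and 1202 in the 3-week fructose pool and 1146 in the chow pool, so Marco made most of the difference between the 2-week pools. Whether genotype, the mix of sexes or another trait of the null pool goes with these differences cannot be told apart with 1 pool.

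Most other Kupffer cell genes lay under 2-fold. Of the 14 on the array, all assessed, 1 was at least 2-fold higher in the Chrebp-null comparison and none lower, with a median of -0.04, where 2.03% of all genes assessed were higher and 3.46% passed either way. The one was Id3, a transcriptional regulator that Kupffer cells need and other cells express as well. It read 6.61 in the Chrebp-null pool, against 5.20 in the 2-week WT pool, and 5.87 in the 3-week fructose pool, against 6.28 in the chow pool. Thus Id3 was low in the 2-week WT pool rather than high in the null pool alone, and the null pool was higher than chow by 0.33. Adgre1, the gene of the F4/80 antigen, stood at -0.45, and the C1q chains C1qa, C1qb and C1qc at -0.19, -0.05 and -0.03. Cd163, a receptor for haemoglobin bound to haptoglobin, stood at 0.31 and Folr2, a folate receptor, at -0.26. Spic and Hmox1, a transcription factor and an enzyme of haem handling in macrophages, stood at 0.58 and 0.56. The summed level of the 14 was 2035 in the Chrebp-null pool and 2026 in the 2-week WT pool, and 1655 in the 3-week fructose pool and 1728 in the chow pool. Over the 3-week pool the null pool had a median difference of 0.36 with 11 of 14 above 0, and over chow of 0.24 with 13 of 14 above 0. Medians over all genes assessed were 0.11 and 0.058 in the same order, also above 0. On fructose for 3 weeks over chow the median of this list was -0.13, and Clec1b, a C-type lectin receptor, was the one gene past 2-fold, higher by 1.09, where 1.80% of all genes assessed passed either way.

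Genes shared by many macrophages had a median of 0.02 over 14 assessed in the Chrebp-null comparison, with none past 2-fold, and 7 of the 15 on the array stand in another list too. Cd14, a co-receptor for lipopolysaccharide, stood highest at 0.92. It read 5.26 in the Chrebp-null pool, against 4.35 in the 2-week WT pool, and 3.74 in the 3-week fructose pool, against 3.98 in the chow pool, so that the null pool was also higher than the 3-week pool by 1.53. Msr1, the class A scavenger receptor of the same family as Marco, stood at 0.46, and Lyz2, lysozyme of myeloid cells, at -0.12. The median in the fructose comparison was -0.0024, again with none past 2-fold, and Fcer1g, a signalling chain of Fc receptors, stood highest at 0.69.

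Genes known from lipid-associated macrophages were spread more widely. Of 14 assessed in the Chrebp-null comparison, 4 were at least 2-fold higher and 1 was at least 2-fold lower, with a median of 0.19, where 3.46% of all genes assessed passed 2-fold either way and 2.03% were higher. Mmp12, macrophage elastase, read 6.07 in the Chrebp-null pool, against 4.30 in the 2-week WT pool, and 3.59 in the 3-week fructose pool, against 3.72 in the chow pool. Like Marco and Gpnmb, it was highest in the null pool, by 1.77 over the 2-week WT pool. Lpl, lipoprotein lipase, was also highest there, at 7.42 in the Chrebp-null pool, against 6.27 in the 2-week WT pool, and at 5.40 in the 3-week fructose pool, against 6.37 in the chow pool. Cd63, a tetraspanin of lysosomes, was higher by 1.26. Atp6v0d2, a subunit of the lysosomal proton pump, was higher by 1.69 but read highest on chow, at 6.84. Fabp5, a fatty acid binding protein, was lower at -1.29 and higher on fructose by 2.43 in WT, the 1 gene of 12 at least 2-fold higher there, beside Atp6v0d2, which was lower at -2.13, where 1.80% of all genes assessed passed 2-fold either way. Lgals3, galectin-3, and Itgax, an integrin chain, stood at 0.73 and 0.84 in the Chrebp-null comparison, the second with WT levels below the floor (0.14 with those set at it). Several of these genes, such as Apoe, Ctsb and Ctsd, are also expressed by hepatocytes, and these 3 stood between 0.02 and 0.05. Which cells carried the differences past 2-fold was not tested either, as the RNA is of whole liver. The median in the fructose comparison was 0.07. Medians of the macrophage lists were further from 0 against the other WT pools. Over the 3-week pool they were 0.36 for other Kupffer cell genes, 0.35 for genes shared by many macrophages and 0.27 for this list, beside 0.45 for the 9 genes and 0.11 for all genes assessed. Over chow they were 0.24, 0.28 and 0.42, beside 0.51 for the 9 and 0.058 for all genes assessed. This was not particular to macrophage lists. Over the 3-week pool and chow, stellate cell and fibroblast markers had medians of 0.23 and 0.18, and cholangiocyte markers 0.81 and 0.51. Receptors and bridging proteins for dying cells had 0.30 and 0.34. Hepatocyte markers had 0.0011 and -0.0042, and sinusoidal endothelial markers -0.22 and 0.067.

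Growth factors and signalling partners of Csf1r and Trem2 showed none of 14 assessed past 2-fold in the Chrebp-null comparison, with a median of 0.10. Csf1 and Il34, the ligands of Csf1r, stood at 0.46 and 0.51, the second with its WT level below the floor (0.14 with that level set at it). Spi1, which encodes PU.1, stood at -0.10, the adaptor Tyrobp at 0.15 and the kinase Syk at 0.01. Cebpa, a transcription factor of hepatocytes and myeloid cells, stood lowest at -0.67. On fructose over chow the median was -0.24, against -0.052 over all genes assessed, with 11 of 14 below 0 and none past 2-fold. Csf1 and Il34 stood at -0.53 and -0.60 there, the second -0.075 with the floor in place of its 3-week level.

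Receptors that work beside Marco, Timd4 and Vsig4 lay under 2-fold in the Chrebp-null and fructose comparisons. Over the 3-week WT pool, the scavenger receptor Scara3 and the bridging protein Mfge8 were higher in the null pool by 1.48 and 1.55. Of all genes assessed there, 3.38% were at least 2-fold higher. Of 11 other scavenger receptors assessed in the Chrebp-null comparison none passed 2-fold, and their median was 0.06, with Msr1 at 0.46 and Scarb2 at -0.49 at the ends. Their median in the fructose comparison was 0.06 too, with Scara3 at -0.72 and Cd36 at 0.62. Receptors and bridging proteins for dying cells had a median of 0.04 over 9 assessed, none past 2-fold, with Mfge8, a bridging protein, at 0.52 and Mertk, a receptor kinase, at 0.30. On fructose it was 0.04 over 10 assessed, none past 2-fold. Complement components and receptors had a median of -0.05 over 13 assessed, none past 2-fold, with C5ar1, the receptor for C5a, at 0.91 (0.26 with the floor as the WT level) and C4b at -0.49. On fructose it was -0.15 over 11, none past 2-fold. Lysosome genes had a median of 0.04 over 21 assessed, with 2 past 2-fold, where 3.46% of all genes assessed were. These were Cd63 and Atp6v0d2, the same 2 genes as in the lipid-associated list. Their median in the fructose comparison was -0.02, with Atp6v0d2 lower, where 1.80% of all genes assessed passed 2-fold either way.

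**Figure D3:**
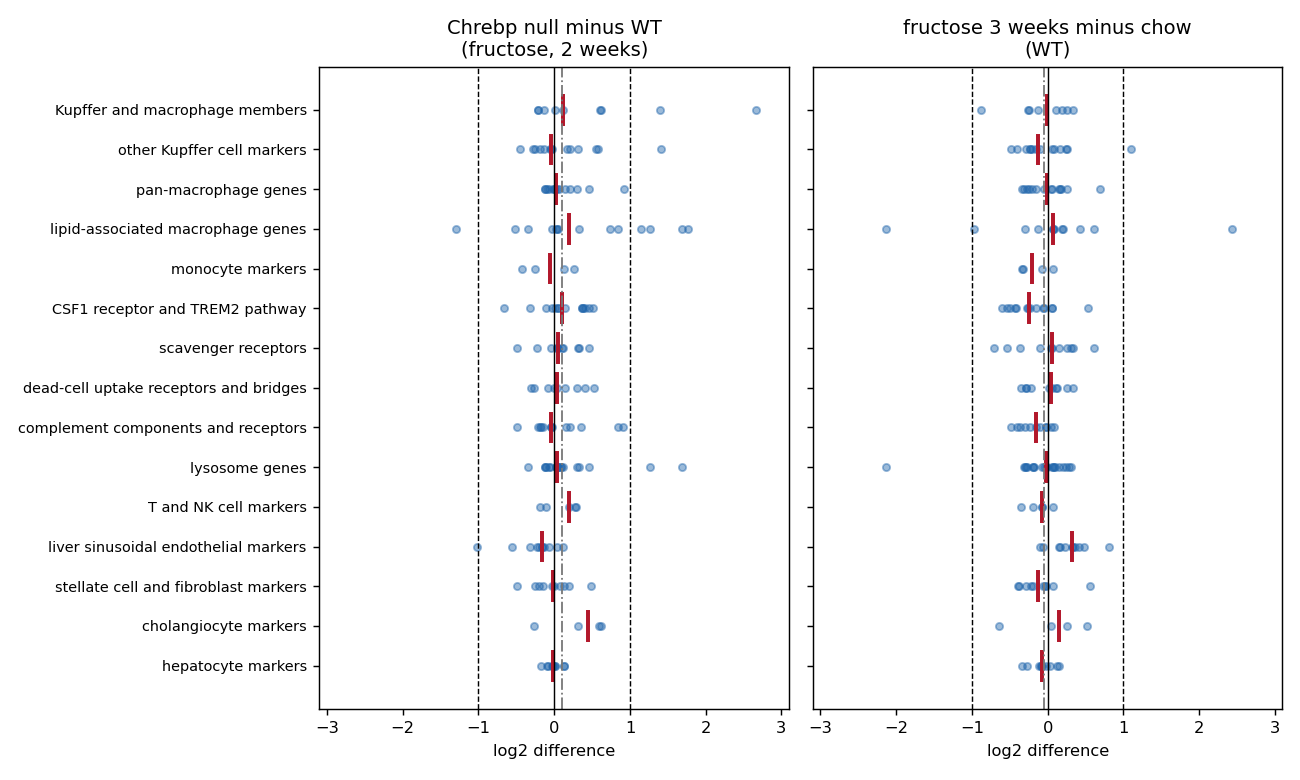
Log2 difference (horizontal axis) of every assessed gene of each list with at least 4 assessed in both comparisons (blue points), with the list median as a red bar, Chrebp null minus WT at 2 weeks on the left and 3 weeks of fructose minus chow on the right. The dash-dotted line is the median of all genes assessed and dashed lines mark 2-fold. In the Chrebp-null comparison the macrophage lists have medians between -0.04 and 0.19 against the 2-week WT pool shown, with single genes such as Marco at 2.66 and Mmp12 at 1.77 far from them.

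Markers of other immune cells were mostly below the floor. Of 10 monocyte markers 4 were assessed in the Chrebp-null comparison, with a median of -0.06 and none past 2-fold. Ccr2, the chemokine receptor that marks inflammatory monocytes, read 3.14 in the Chrebp-null pool and 3.15 in the 2-week WT pool, and 2.62 in the 3-week fructose pool and 2.89 in the chow pool, below the floor throughout. Ly6c2, another monocyte marker, stood at -0.43. The summed level of the monocyte list was 145 in the Chrebp-null pool and 151 in the 2-week WT pool, and 127 in the 3-week fructose pool and 143 in the chow pool. Of 11 neutrophil markers 10 read below the floor in the Chrebp-null pool and 10 in the 2-week WT pool, S100a8 and S100a9 among them, with 1 assessed (Csf3r, at 0.22). Of 8 dendritic cell markers 3 were assessed, with a median of 0.33, the value of Xcr1 (0.072 with the floor in place of its WT level). T and NK cell markers had 5 of 10 assessed, with a median of 0.20, and B cell markers 3 of 6, with a median of -0.08. None of these lists had a gene past 2-fold in the Chrebp-null comparison. Their medians in the fructose comparison were -0.20 for monocytes, 0.47 for neutrophils (1 gene, Cxcr2, at 0.086 with the floor in place of its chow level), 0.61 for dendritic cells (2 genes), -0.07 for T and NK cells and -0.16 for B cells (2 genes), none with a gene past 2-fold.

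Of the other cell types of the liver, sinusoidal endothelial markers had a median of -0.17 over 11 assessed in the Chrebp-null comparison. Lyve1, a hyaluronan receptor, was the 1 gene past 2-fold, lower at -1.01, where 3.46% of all genes assessed passed either way. Their median in the fructose comparison was 0.32 with none past 2-fold, and Lyve1 stood at 0.81. Stellate cell and fibroblast markers had medians of -0.01 and -0.13 over 10 in the Chrebp-null and fructose comparisons, and hepatocyte markers -0.01 and -0.08 over 10, none past 2-fold. Cholangiocyte markers had medians of 0.45 and 0.15 over 4, none past 2-fold, with Muc1 and Sox9 at 0.61 and 0.60 in the Chrebp-null comparison. Of 4 red cell and platelet markers 1 was assessed there, Itga2b at 0.27 (0.11 with the floor in place of its WT level). None was assessed in the fructose comparison.

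The genes most like Marco and Gpnmb over the 4 arrays were found from the distance between levels centred on each gene's mean, among 12193 other genes that reached the floor on any array. With 4 values per gene such likeness is a description only. Nearest to Marco were Lrtm2 (distance 0.33), Srxn1 (0.41) and Abcc4 (0.43). Lrtm2 lay below the floor in all WT pools, so its distance rests on levels that low, and its difference of 2.43 from the 2-week WT pool was 1.95 with the floor in place of the WT level. Srxn1 encodes sulfiredoxin, an antioxidant enzyme, and read 7.35 in the Chrebp-null pool, against 5.11 in the 2-week WT pool, and 4.66 in the 3-week fructose pool, against 5.27 in the chow pool. Abcc4, an efflux transporter of organic anions, was higher in the null pool than in the 2-week WT pool by 2.77. Gpnmb itself lay below the floor in all WT pools, so distances to it rest on levels that low. Nearest to Gpnmb were Pls1 (distance 0.15), which encodes an actin-bundling protein, Mir122 (0.21), annotated as the gene of a liver microRNA, and Mthfd2 (0.27), a mitochondrial enzyme of folate metabolism. These 3 were higher in the null pool than in the 2-week WT pool by 1.45, 1.25 and 1.19. Mthfd2 lay below the floor in all WT pools, and its difference was 0.58 with the floor in place of the 2-week WT level.

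**Figure D4:**
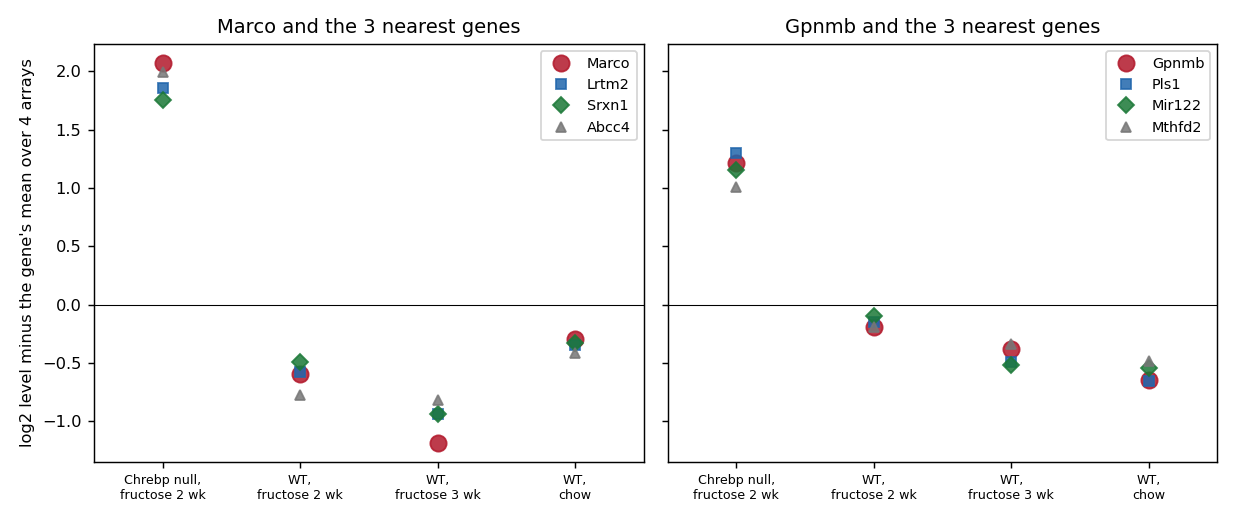
Log2 level minus the gene's mean over the 4 arrays (vertical axis) in each pool, for Marco with its 3 nearest genes on the left and Gpnmb with its 3 nearest genes on the right. Every gene shown is highest in the Chrebp-null pool. Marco is lowest in the 3-week WT pool and Gpnmb in the chow pool, though Gpnmb is below the floor in all WT pools.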

How the data were processed

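Liver RNA was pooled by genotype and treatment, and 400 ng of each pool was labelled with an Affymetrix kit, per the labels' protocols. For 41345 probe sets the authors deposited log2 values, made with affy and RMA per the submitters' processing notes. Neither versions nor settings, nor joint normalization of the arrays, are stated in the sources. RMA compresses large differences and those of dim genes. Values were used as deposited.

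Probe sets with 1 gene symbol in the platform annotation were used, and per gene the one with the highest mean over the 4 arrays, which left 22180 genes. The symbols of all 9 members were kept by RefSeq (GRCm38.p6). Groups came from the labels. Differences were subtractions of log2 values, counted past 2-fold above the floor of 3.52. With 1 array per group no test was possible. Members, the 18 other lists and the rules were chosen with earlier results of these data known. Named genes were the members, up to 3 genes per list with the largest absolute difference, genes past 2-fold, and the 3 nearest genes of members spanning at least 1 log2 unit. Not every such gene is printed. The procedure was tested on simulated data. Alternatives covered the floor, the scaling, the probe set rule, the WT array and the threshold. Python 3.11.15, numpy 2.4.6, pandas 2.3.3, statsmodels 0.14.6 and matplotlib 3.10.9 were used.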

Additional observations from a re-analysis of the deposited data

Results flagged for a closer look

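The genes Timd4, Cd5l and Csf1r had differences over the same chow array that pointed in opposite directions at 3 and 2 weeks of fructose in WT, with 1 array each. The difference between the weeks was not tested. Timd4 stood at -0.13 for 3 weeks minus chow and at 0.19 for 2 weeks minus chow. Cd5l stood at -0.25 and 0.72 in the same order, and Csf1r at -0.27 and 0.074. All lay under 2-fold.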

How the results depend on the processing

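The number of the 9 genes at least 2-fold different in the Chrebp-null comparison was 2, and it was also 2 without a floor, with arrays centred on their medians, after quantile normalization, after removal of the trend with level (lowess, fraction 0.3), with all probe sets averaged, with either or both WT fructose arrays and with low levels set at the floor. It was 1 with the floor at the 75 percentile, which leaves Gpnmb out, 4 at a 1.5-fold threshold and 1 at a 3-fold threshold. The median of 0.12 became 0.014 with the floor at the 75 percentile, 0.45 against the 3-week WT array and 0.27 against the mean of both WT fructose arrays. In the fructose comparison the count of 0 became 1 at a 1.5-fold threshold (Marco, lower). The median of -0.0078 became 0.11 with no floor, 0.25 with the 2-week array over chow, 0.22 with the mean of both WT fructose arrays, and 0.037 and 0.053 after quantile normalization and trend removal, so it has no stable sign. Beyond the WT array and the floor, the cause of these shifts was not tested. Over 9 alternatives Marco ranged from 2.58 to 3.25 and Gpnmb from 1.26 to 1.59 in the Chrebp-null comparison. Of these alternatives, no floor and the floor at the 75 percentile change only which genes are assessed, not their differences. Averaging probe sets changes no member, as each has 1 probe set. Low levels set at the floor move only genes below it. Of 162 member differences under the alternatives, those that could not move included, 156 moved by less than 0.43, the SD over genes between WT pools on fructose. The other 6 were of Marco and Cd5l with the other WT array or the mean of both. Of 302 medians of the other lists 234 moved by less than 0.1, and of 792 counts 750 stayed within 1.5 times. These totals also include values that could not move, and many of the counts were 0 and stayed 0. Over all genes, 87 higher and 110 lower passed 2-fold in the Chrebp-null comparison with the floor at the 75 percentile and 398 and 230 against the 3-week array, beside 236 and 166. In the fructose comparison 38 and 77 did with the mean of both WT fructose arrays, beside 75 and 136. No paired analysis was possible because each group has 1 array. Array signal near the floor limits what can be said of Gpnmb and Trem2.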

Other observations

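Some genes were high in both 2-week pools and low in the 3-week and chow pools, as Cd5l was. They were picked after their values were seen, and not all are printed. Scara3 and Fcgr1, for example, stood at -1.52 and -1.07 for 3 weeks minus 2 weeks in WT. Cd63, Mfge8 and Muc1 read higher in the null pool than in the 2-week WT pool, which Cd5l did not. Cd63 read 7.29 in the Chrebp-null pool and 6.03 in the 2-week WT pool, and 4.73 in the 3-week fructose pool and 4.53 in the chow pool. Mfge8, which bridges dying cells to phagocytes, read 7.02 in the Chrebp-null pool and 6.50 in the 2-week WT pool, and 5.48 in the 3-week fructose pool and 5.46 in the chow pool. Muc1, a mucin of bile duct cells, read 5.71 and 5.10 in the Chrebp-null and 2-week WT pools, and 4.41 and 3.89 in the 3-week fructose and chow pools. The 3-week minus 2-week difference in WT was -1.29 for Cd63, -1.02 for Mfge8, -0.97 for Cd5l and -0.69 for Muc1, where 1.10% of the 11648 genes assessed were at least 2-fold lower.

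Cd209a, a C-type lectin of dendritic cells, had its highest level in the 3-week fructose pool, 6.93, against 6.12 in the chow pool, and read 5.28 in the Chrebp-null pool, against 5.78 in the 2-week WT pool.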
